A study of Homo sapiens with 15 samples.

Results

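Clustered histone genes were described in total RNA of C4-2B, an established human prostate adenocarcinoma cell line derived from LNCaP. Members were the protein-coding genes on chromosomes 1, 6 and 12 whose current symbol is H1-1 to H1-6 or begins with H2AC, H2BC, H3C or H4C followed by a number. This gave 69 of the 58302 genes listed, or 69 of 19712 protein-coding genes. They are 6 genes of class H1, 17 of H2A, 18 of H2B, 13 of H3 and 15 of H4. Levels played no part in the choice.

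The study followed the passage of prostate adenocarcinoma to a neuroendocrine-like state. Its labels name 5 groups with 3 RNA-seq replicates each, namely C4-2B, and DKD and ER cells that received either scr or siPax5. The 3 C4-2B libraries were analysed here (genotype "Wild type", with no treatment named), while libraries from the other cells are not analysed here and no conditions were compared. Counts in genes came to 44992971, 49569026 and 46232076 per library. Nothing in the labels ties the replicates to separate cultures, so p-values here speak only of these samples. They ask whether the libraries differ by more than counting error. The cells carried the defining markers of their label. The prostate-specific antigen gene KLK3 stood at 1988 TPM (a count divided by the length of the gene's exons and scaled to a fixed sum per library), and KLK2, TMPRSS2, KRT8 and KRT18 at 197 to 321 TPM. The neuroendocrine markers CHGA and SYP stood at 1.38 and 1.31 TPM. In bulk RNA, fewer cells that express a gene and less RNA per cell cannot be told apart.

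Histones H2A, H2B, H3 and H4 form the core around which DNA is wrapped, and linker histone H1 binds where the DNA enters and leaves it. Most are made in S phase from genes that lie in clusters, so that new chromatin can be assembled as DNA is copied. Their messages are the known exception among animal mRNAs in having no poly(A) tail. They end instead just after a short stem-loop, which is bound by the stem-loop binding protein SLBP and is cut with the help of the U7 small nuclear RNA. A library made by rRNA depletion keeps such messages, while one selected on poly(A) would lose most of them.

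The stem-loop is shown first because it sets this class of message apart and marks where the message ends. The search used a fixed 16-base pattern written for histone stem-loops, which did not require both sides of the stem to pair. It covered the 100 bases after each stop codon of the GRCh38 annotation. The pattern was found in 69 of 69 members and in 3 of 19980 other protein-coding genes (0.0150%), which are H2AX, H3-4 and H3-7. The members carried 10 distinct forms. One form was shared by 40 genes of classes H1, H2A, H2B and H3, and another by 10 genes of class H4. Below, the capitals mark the 16 bases and the lower case the 5 genomic bases on each side, read on the strand of the gene.
H3C2: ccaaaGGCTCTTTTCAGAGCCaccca
H4C3: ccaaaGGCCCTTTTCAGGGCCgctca
H2BC12: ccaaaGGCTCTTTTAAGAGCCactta
H2AC20: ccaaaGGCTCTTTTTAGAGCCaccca
H1-2: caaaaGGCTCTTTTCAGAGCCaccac
These are the members with the highest TPM in their classes. In counts, H2AC11, H2BC21 and H4C8 led H2A, H2B and H4. H3C2 and H1-2 have the commonest form and H4C3 the usual H4 form. H2BC12 has a form shared by 9 members, and that of H2AC20 was found in 1 member. The stretches lie at chr6:26031592-26031617, minus strand, chr6:26104312-26104337, plus strand, chr6:27146361-27146386, minus strand, chr1:149887386-149887411, plus strand, and chr6:26055739-26055764, minus strand. Across members the stem-loop began 22 to 67 bases after the stop codon (median 35).

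The gene models used for counting did not treat this end alike. In 37 members the model stopped before the end of the stem-loop, in 5 it stopped at it, and in 26 it ran on for more than 50 bases beyond it. Of the 37, the models of H1-4 and H1-6 stopped within the stem-loop. In H2BC11 the stem-loop lay between the coding exon and a distant later exon, so that its own bases were not counted. In 32 members the model held little beyond the coding sequence and the stop codon. Model lengths ran from 297 to 5477 bases, although the coding sequences ran from 294 to 678 bases. TPM divides by the model length, which in long models includes bases that a message ending at the stem-loop would not hold. Where the reads fell within the models was not examined.

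The promoters were read from the RefSeq table (GRCh38.p14, 250 bases before to 50 after the start), which matched 64 of 69 members. Letters were searched on both strands. TATAAA, the letters of a TATA box, was in 65.6% of the members' promoters and in 11.5% of all 35116 promoters. CCAAT was in 84.4% and 34.6%, and ATGCAAAT, the octamer known from H2B promoters, in 40.6% and 1.77%. The classes differed in these counts. CCAAT was in all promoters read for H1, H2A, H2B and H3 and in 3 of 13 for H4. The octamer was in 14 of 18 H2B, 11 of 16 H2A and 1 of 11 H3 promoters, and in none of the 6 H1 and 13 H4 promoters. The H3 case is H3C4, for which the RefSeq table gives the same window as for H2AC7, so its letters were counted for both genes. Neighbouring H2A and H2B genes that face away from each other also have overlapping windows. TATAAA and its reverse can overlap in the letters TTTATAAA. A match is a run of letters and was not tested as a binding site. The promoters below are of the H3 and H2B members with the highest TPM, of the H4 member with the second highest, and of a nearly silent H3 gene described further on. Capitals mark the letters searched.
H3C2: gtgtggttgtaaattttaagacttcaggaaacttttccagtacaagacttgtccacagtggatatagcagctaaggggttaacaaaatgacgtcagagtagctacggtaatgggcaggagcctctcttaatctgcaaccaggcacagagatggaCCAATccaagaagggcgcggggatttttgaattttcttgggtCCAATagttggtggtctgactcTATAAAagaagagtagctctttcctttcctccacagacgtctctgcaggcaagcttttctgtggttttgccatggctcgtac
H2BC12: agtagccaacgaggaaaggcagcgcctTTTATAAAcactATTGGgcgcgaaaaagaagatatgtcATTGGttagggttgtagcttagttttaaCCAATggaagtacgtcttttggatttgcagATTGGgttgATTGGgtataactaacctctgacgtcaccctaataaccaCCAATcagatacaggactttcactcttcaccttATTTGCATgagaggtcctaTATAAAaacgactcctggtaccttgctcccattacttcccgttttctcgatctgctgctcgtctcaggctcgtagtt
H4C2: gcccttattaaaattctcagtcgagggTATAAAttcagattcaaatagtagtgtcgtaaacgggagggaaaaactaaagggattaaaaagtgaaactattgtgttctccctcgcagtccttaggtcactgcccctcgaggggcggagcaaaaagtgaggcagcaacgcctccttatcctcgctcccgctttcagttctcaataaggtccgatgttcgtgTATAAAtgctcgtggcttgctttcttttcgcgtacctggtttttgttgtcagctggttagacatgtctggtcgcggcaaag
H3C7: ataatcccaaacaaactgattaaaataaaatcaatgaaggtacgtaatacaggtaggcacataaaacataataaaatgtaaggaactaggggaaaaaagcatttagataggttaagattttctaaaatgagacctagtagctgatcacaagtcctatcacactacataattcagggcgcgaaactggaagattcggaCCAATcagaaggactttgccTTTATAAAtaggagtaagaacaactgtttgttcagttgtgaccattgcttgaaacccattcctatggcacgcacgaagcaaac
They lie at chr6:26032050-26032349, minus strand, chr6:27146809-27147108, minus strand, chr6:26027234-26027533, minus strand, and chr6:26250586-26250885, minus strand. The H2BC12 stretch lies between the counting models of H2BC12 and H2AC12, which are transcribed away from each other.

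Members took 0.784% ± 0.0121 of the counts (SD, n = 3) and 3.73% ± 0.0456 of the TPM, which divides by length. Their summed level was 37640 TPM in replicate 1, 37519 in replicate 2 and 36798 in replicate 3. In all 3 libraries, 48 of 69 members stood at 1 TPM or more (69.6%), beside 61.2% of protein-coding genes and 32.8% of all genes. This share was near that of protein-coding genes, but the levels were not: the median member stood at 108 TPM and the median protein-coding gene at 5.88 TPM. In each of the 3 libraries, 35 members reached 100 TPM and 14 reached 1000 TPM, a level that 60 protein-coding genes in all reached. Among the 100 protein-coding genes with the highest TPM, 19 were members. None was among the 100 with the most counts, where length is not divided out. The sum was uneven, and 10 members held 60.9% of it. At the other end, 16 members had fewer than 10 counts in each library and 2 had no counts at all.

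**Figure D1:**
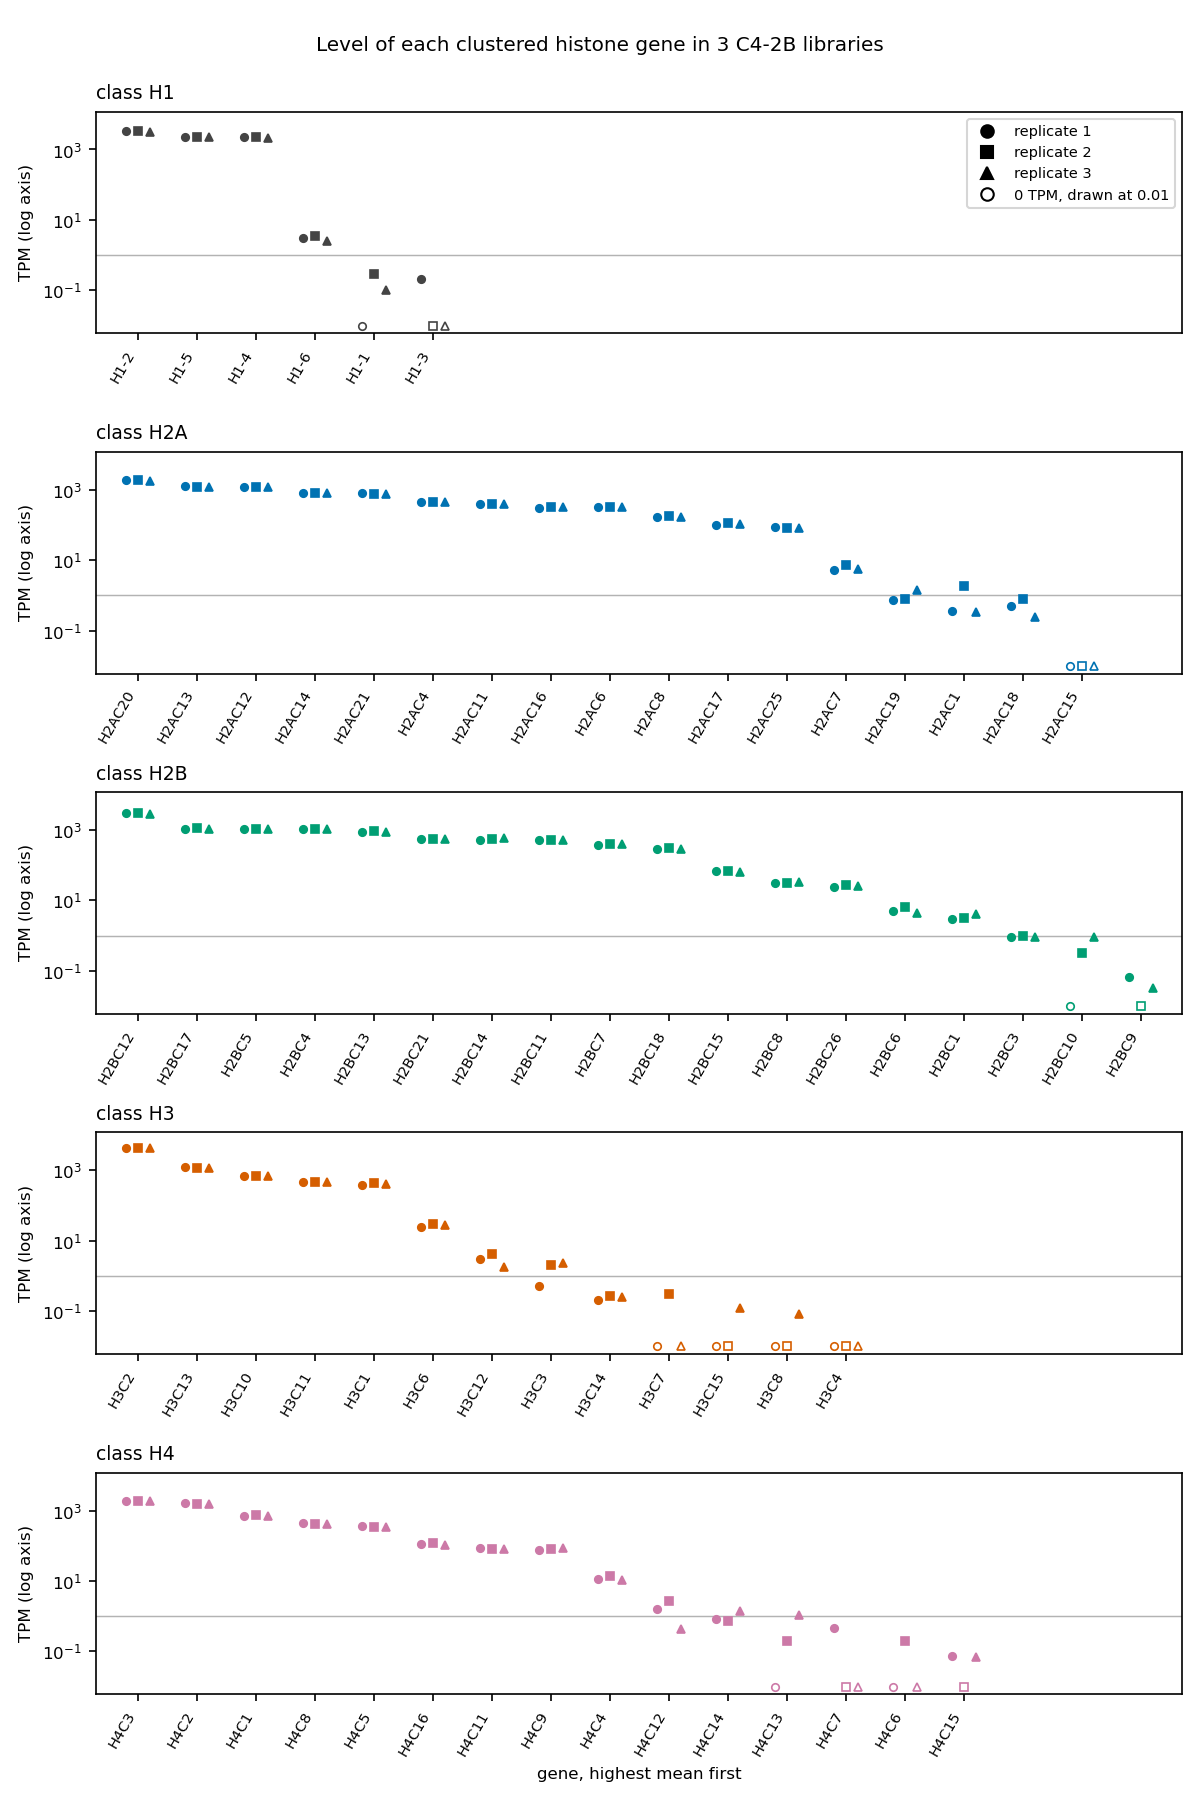
Level of each of the 69 members in TPM on a log axis, by histone class, with 1 symbol for each of the 3 C4-2B libraries and genes ordered by their mean. The grey line is at 1 TPM. Within a class the levels span from over 1000 TPM to under 1 TPM, and the 3 libraries lie close together for members above 100 TPM.

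Class H1 was carried by 3 of its 6 genes, which held 99.96% of its TPM. H1-2, a linker histone found in most cell types, stood at 3285, 3306 and 3228 TPM (3273 ± 40.1). H1-5 stood at 2294, 2303 and 2242 TPM (2280 ± 33.0). H1-4 stood at 2204, 2230 and 2138 TPM (2191 ± 47.4). The ranges of these 3 genes in TPM did not overlap, although those of H1-5 and H1-4 nearly met. The order of H1-5 and H1-4 depended on the length used. In counts H1-4 was above H1-5 in each library (24092, 26771 and 23817 against 22649, 24970 and 22556). By coding length H1-4 stood at 881 TPM and H1-5 at 802 TPM. H1-6, the testis linker histone, stood at 2.98 ± 0.524 TPM on 26 to 40 counts. H1-1 had 0, 3 and 1 counts (0.132 TPM), and H1-3 had 2, 0 and 0 counts (0.0691 TPM). All 6 genes, high and low, were countable over their whole length, as defined below.

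Class H2A, which pairs with H2B in the nucleosome, was spread over more genes, and its 5 highest held 75.9% of its TPM. H2AC20 on chromosome 1 led with 1885, 1881 and 1769 TPM (1845 ± 65.8). This lead depended on the length used, since H2AC11 led in counts and by coding length (802 against 651 TPM) and H2AC14 by countable positions. H2AC13 stood at 1280, 1224 and 1233 TPM (1246 ± 29.999) and H2AC12 at 1212, 1204 and 1160 TPM (1192 ± 27.7). The lowest value of H2AC13 lay just above the highest of H2AC12. H2AC14 stood at 808 ± 9.10 TPM and H2AC21 at 755 ± 26.4 TPM. Another 6 genes, H2AC4, H2AC11, H2AC16, H2AC6, H2AC8 and H2AC17, stood between 108 and 450 TPM. H2AC25, whose protein is also known as H2A.W and whose gene stands apart on the long arm of chromosome 1, stood at 83.4 ± 1.66 TPM. H2AC1, a testis gene, had 2, 12 and 2 counts (0.865 ± 0.8998 TPM).

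Class H2B held the largest class sum. H2BC12 stood at 3045, 2945 and 2895 TPM (2962 ± 76.2), or 30.9% of the class. H2BC17 (1114 ± 43.0 TPM), H2BC5 (1076 ± 20.4 TPM) and H2BC4 (1053 ± 1.31 TPM) had close levels, with the lowest value of H2BC17 at 1083 TPM and the highest of H2BC5 at 1099 TPM. H2BC13 followed at 902 ± 24.2 TPM. H2BC21 stood at 561 ± 3.10 TPM, but its model is 2194 bases long, and by counts alone it was the fifth highest of all members. The testis gene H2BC1 had 22, 26 and 32 counts (3.43 ± 0.670 TPM).

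In class H3, the gene H3C2, which codes for H3.1, had 26376, 28436 and 26080 counts, or 4427, 4346 and 4296 TPM (4356 ± 66.2), and held 61.2% of the class. By countable positions, described below, it held 44.2% of H3, and H2BC12 held 46.9% of H2B. It was the highest member in TPM, at 1.33 times H1-2, while H1-2 was the highest in counts. H3C13, which codes for H3.2, stood at 1235, 1184 and 1154 TPM (1191 ± 41.1). H3C10 stood at 683 ± 11.99 TPM, H3C11 at 453 ± 3.27 TPM and H3C1 at 409 ± 15.2 TPM. No other H3 member exceeded 27.3 TPM. H3C3 had 3, 13 and 14 counts (1.599 ± 0.962 TPM), so that its level is uncertain.

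Class H4 had the smallest class sum, from 9 of 15 members at 1 TPM or more. H4C3 stood at 1858, 1819 and 1841 TPM (1840 ± 19.4), above H4C2 at 1616, 1535 and 1519 TPM (1557 ± 51.8). H4C1 stood at 714 ± 9.03 TPM, H4C8 at 416 ± 13.4 TPM and H4C5 at 354 ± 10.8 TPM. H4C16, the only member on chromosome 12, stood at 112 ± 4.63 TPM. H4C7, the gene whose protein differs from that of the other 14 H4 genes, had 2, 0 and 0 counts.

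The classes were then set side by side, since a nucleosome needs equal numbers of the core histones. H2B held 25.7% ± 0.225 of the members' TPM (SD, n = 3), H1 20.8% ± 0.127, H2A 20.6% ± 0.0613, H3 19.1% ± 0.106 and H4 13.9% ± 0.148. The spread between libraries was small, and neighbouring classes did not overlap, except for H1 and H2A. The choice of length moved these shares by far more than the libraries did. In counts, H2B held 31.3% and H3 and H4 14.5% and 14.6%. Dividing by coding length gave H1 13.5% and H4 19.3%, and dividing by the positions that can be counted gave H2A 27.7%, just above H2B at 26.2%. The order of the classes was therefore not fixed by these data, and the cause of the difference between measures was not tested beyond these lengths.

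**Figure D2:**
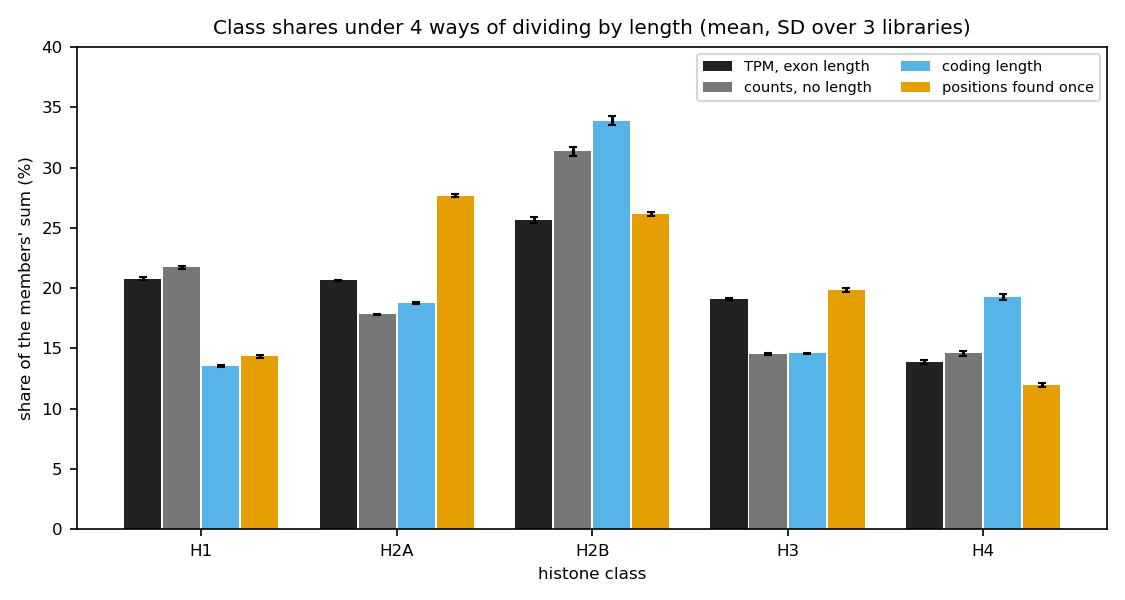
Share of the members' sum held by each histone class, in percent, as bars of the mean with SD over 3 libraries, for TPM, counts, coding length and countable positions. H4 runs from 11.96% to 19.3% and H1 from 13.5% to 21.7% with the length used, while the error bars stay small.

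A read from a gene with near-identical copies cannot be placed, and reads that align to several places were not counted. The genes differ in how much of their sequence is their own. All 15 H4 genes code for 2 distinct proteins and the 13 H3 genes for 2, against 11 for the 17 H2A genes, 14 for the 18 H2B genes and 6 for the 6 H1 genes. In coding sequence, genes of a class with equal length were alike at a median of 85.6% of bases in H2A, 89.8% in H2B, 85.3% in H3 and 83.8% in H4. To see what could be counted, every 75-base stretch of each gene model was looked for in the genome. A stretch is called countable here if it occurs once in GRCh38 and lies under no exon of another gene. The read length is not given in the sources used here. Strand was not used, so antisense RNA over a member counts for it. With read pairs a mate can place its partner, so the countable share is a guide, not the share of reads counted.

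Every stretch occurred once in 40 members, and none did in 7. These 7 were H2AC18, H2AC19, H3C14, H3C15, H4C12, H4C14 and H4C15. H2AC18 with H2AC19, H3C14 with H3C15, H4C14 with H4C15, and H4C11 with H4C12 are pairs with the same coding sequence. The first 3 pairs lie in a doubled stretch of chromosome 1, and their 6 genes had between 0 and 40 counts in any library. H4C12 had 7, 13 and 2 counts. Another 4 members had under 5% countable positions for lack of exons of their own. H2AC15 lies under H2BC15 and had no counts, and H3C4, also covered whole by another gene, had none. H2AC7 (30, 45 and 32 counts) and H2AC17 (577, 728 and 621 counts) are also covered almost whole by exons of other genes. For H2AC15 and H3C4, 3 counts over the 3 libraries would be 0.169 and 0.162 TPM, a limit that covers counting error alone and says nothing of reads that were discarded. The values printed for these 11 members are what could be counted and are no estimate of the message, including H2AC17, which is 1 of the 35 members at 100 TPM or more. At the boundary, H2AC7 had 2.51% and H4C11 9.03% countable positions.

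Several abundant members were counted over a part of their sequence only. H2AC14 had 17.6% countable positions, H3C13 29.7%, H2AC13 39.9%, H2BC18 45.2%, H2BC12 49.5% and H2AC20 76.3%. Divided by those positions, H2BC12 stood at 7423 TPM, H2AC14 at 5688, H3C2 at 5313 and H3C13 at 4895, so that H3C2 was no longer the highest member. As a ratio, H4C11 moved most, from 83.6 to 1155 TPM. These values are not on the scale of the TPM given elsewhere. A model has fewer 75-base positions than bases, and the sum used for scaling kept the full lengths. H3C2, countable throughout with 337 positions in 411 bases, rose from 4356 TPM for this reason alone. The values also assume that reads outside the countable positions were all lost, and are too high where a mate placed its partner.

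Low levels were not limited to members that cannot be counted. Of the 21 members that did not reach 1 TPM in all 3 libraries, 9 had under 5% countable positions and the other 12 had at least 50%. The 12 were H1-1, H1-3, H2AC1, H2BC3, H2BC9, H2BC10, H3C3, H3C7, H3C8, H4C6, H4C7 and H4C13. Of their 12 promoters, 7 held TATAAA, 11 CCAAT, 12 either and 4 the octamer. Among the 35 members at 100 TPM or more, 31 promoters were read, of which 24 held TATAAA, 27 CCAAT, 29 either and 17 the octamer. These counts were not tested.

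Of these 12 low members, 7 lay next to each other on chromosome 6. From H1-3 to H2BC10, at chr6:26234268-26273356, the 7 consecutive members H1-3, H4C6, H4C7, H3C7, H2BC9, H3C8 and H2BC10 had 20 counts in all over 3 libraries and 39089 bases. No one of them exceeded 5 counts in a library. Their models held 6538 exon bases, and at least 94.8% of the positions of each were countable. H3C6, the neighbour 6794 bases before the run, had 3315 counts, and H4C8, 4252 bases after it, had 40672. The median of the other 27 members of that cluster was 7601 counts over 3 libraries. Of the 7 promoters in the run, 3 held TATAAA, 6 CCAAT and 2 the octamer. H3C7 in the run (0, 2 and 0 counts) and H3C2 outside it code for the same H3.1 protein, and H3C7 is 1 of the run's members with both TATAAA and CCAAT in its promoter, as H3C2 has. The run was chosen after its values were seen and was not tested.

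**Figure D3:**
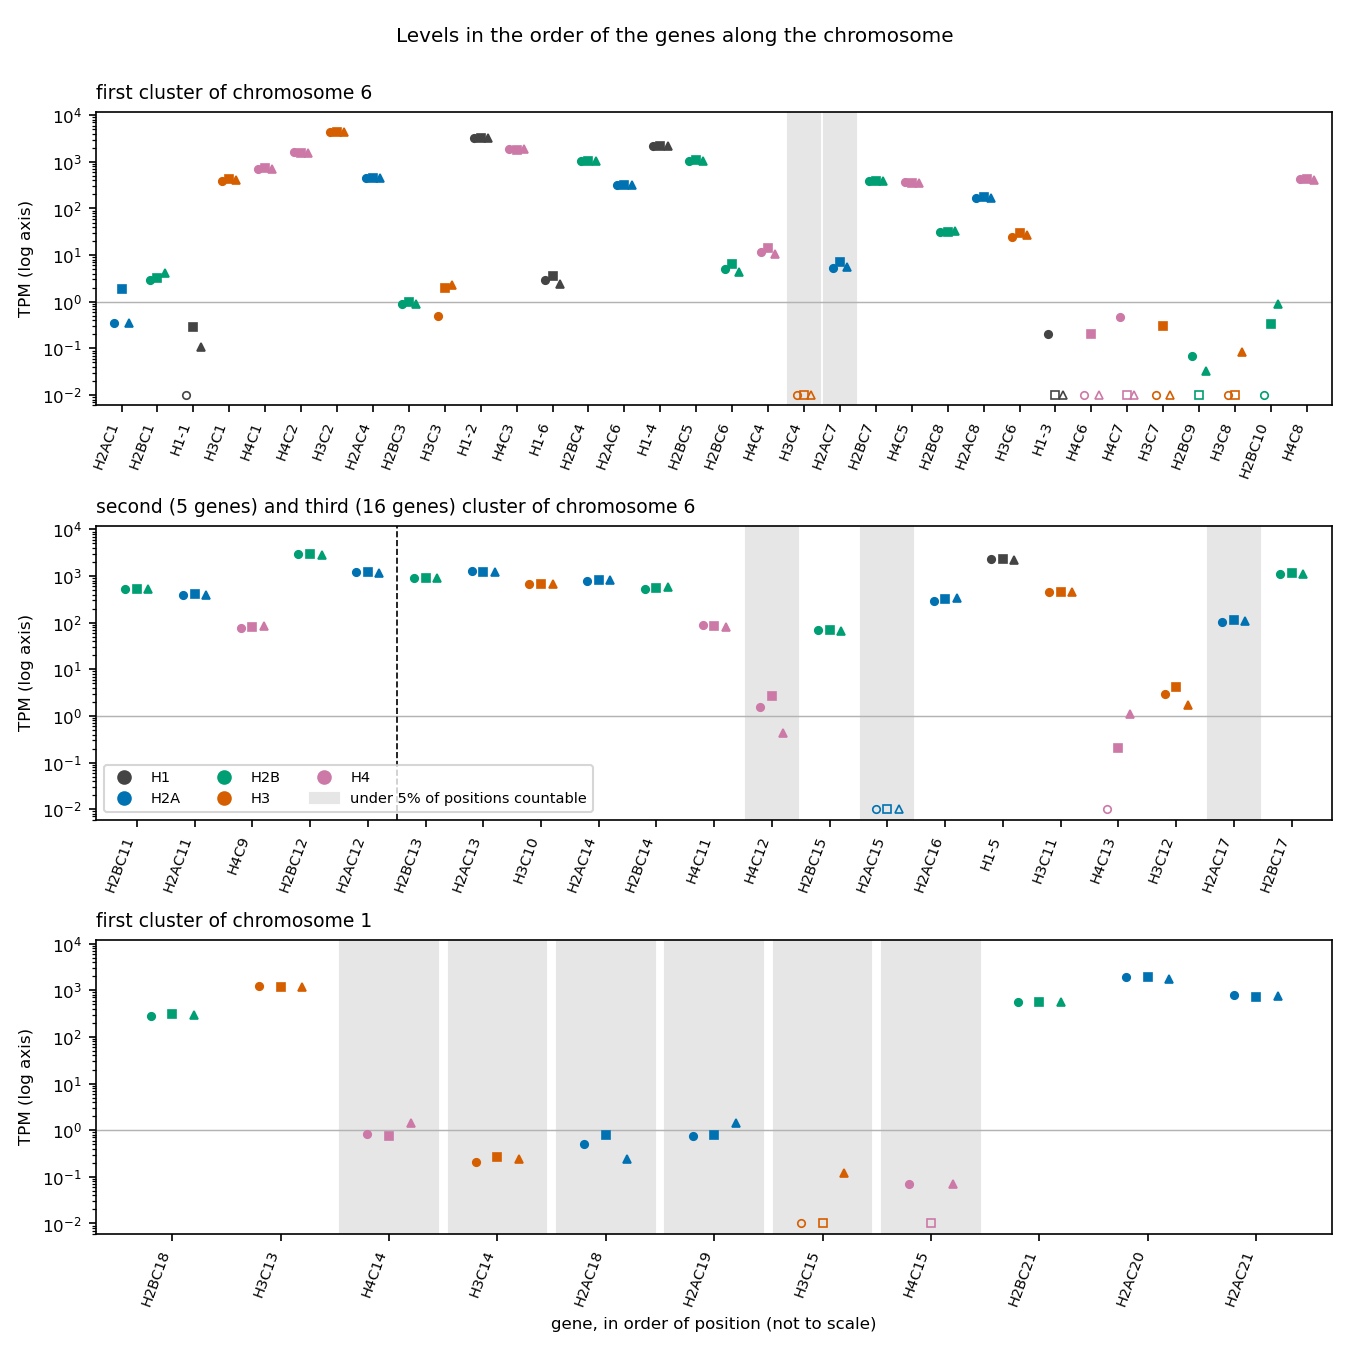
TPM of members on a log axis in the order of the genes along chromosome 6 and in the first cluster of chromosome 1, with 1 symbol per library, colours for the histone class and grey bands for members with under 5% countable positions. The 7 members from H1-3 to H2BC10 lie below 1 TPM between H3C6 at 27.3 TPM and H4C8 at 416 TPM, and no grey band covers them.

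The clusters were cut where neighbouring members were over 500000 bases apart. They held unequal shares of the TPM, but also unequal numbers of members. A share is a sum over members, and the largest cluster held 34 of the 69. Whether the shares differ beyond the number of genes was not tested. The first cluster of chromosome 6 (34 members, chr6:25726132-26285638) held 50.01% ± 0.0658 of the members' TPM. The second (5 members, chr6:27125897-27147515) held 13.8% ± 0.108, and the third (16 members, chr6:27807444-27893843) held 23.1% ± 0.247. The first cluster of chromosome 1 (11 members, chr1:149782689-149887916) held 12.5% ± 0.160. The 2 genes at chr1:228456979-228460470 held 0.293% ± 0.00364 and H4C16 alone 0.299% ± 0.00946. By class, the first cluster of chromosome 6 held 94.6% of the TPM of H4 with 8 of its 15 genes. It held 70.6% of H1 with 5 of 6 genes and 67.3% of H3 with 7 of 13 genes. Of the 7 H4 genes elsewhere, H4C12, H4C14 and H4C15 had no countable positions and H4C11 had 9.03%. In counts the cluster held 88.0% of H4 and 57.2% of H3, and by countable positions 81.2% and 48.6%. In TPM, no cluster held as large a share of H2A or of H2B. H2A was held mostly by the first cluster of chromosome 1 (33.8%) and the third of chromosome 6 (32.2%). The 2 H2B genes of the second cluster of chromosome 6 held 36.4% of H2B. In counts, the largest share of H2A lay in the second cluster of chromosome 6 (31.1%) and that of H2B in the first (30.7%). By countable positions, the third cluster of chromosome 6 held 58.2% of H2A and the second 50.9% of H2B.

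Genes of H2A and H2B often lie head to head with a promoter stretch in common. There were 12 such pairs, with 169 to 250 bases between the genes of GENCODE release 44 (median 233.5), whose ends differ from those of the counting models. In 3 pairs the H2A gene was among those that could not be counted. Of the other 9, the H2A gene had the higher TPM in 5 and the H2B gene in 4, with the difference from 2.42 in favour of H2A to -2.25 (log2 of H2A over H2B, with 0.1 TPM added). H2AC8 with 172 TPM beside H2BC8 with 32.1 TPM gave the highest value. H2AC1 with 0.865 TPM beside H2BC1 with 3.43 TPM gave the lowest, on few counts. H2AC12 beside H2BC12 gave -1.31 ± 0.0203, and H2AC13 beside H2BC13 gave 0.47 ± 0.0658. Such differences share the limits of model length and countable positions given above.

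The 3 libraries were compared by a chi-square test of each gene's counts, divided by 2 because both mates of a pair were counted, with Benjamini-Hochberg adjustment over 22229 genes with at least 30 counts. Of the 50 members tested, 3 passed an adjusted p of 0.05 (6%), beside 0.792% of all genes tested. The test gains power with counts, and among genes of 1000 counts or more, 7.14% of 42 members and 1.45% of 10771 genes passed. This floor does not match the members to genes of like counts, so it cannot separate a difference in power from one in spread. The 3 were H4C8 (chi-square test, adjusted p = 0.0255), H2AC20 (adjusted p = 0.0342) and H1-4 (adjusted p = 0.0481, Benjamini-Hochberg). Their levels are given by library above for H2AC20 and H1-4, and H4C8 stood at 428, 419 and 401 TPM. In all 3 genes replicate 3 was lowest, and the highest and lowest libraries differed by 0.07 to 0.11 on the log2 scale. No member passed without replicate 1 or without replicate 3, so the calls rest on these libraries. The share of all genes tested that passed fell too, to 0.186% without replicate 1 and 0.241% without replicate 3. By unadjusted p, 38% of the 50 members and 11.3% of all genes fell under 0.05.

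Replicate 3 was the lowest library for 27 of the 50 members tested (54%), replicate 1 for 15 and replicate 2 for 8. It was the lowest for 33.6% of all genes tested and 34.7% of protein-coding genes. Among genes of 1000 counts or more, the median range between libraries was 0.08 on the log2 scale for the members and 0.08 for all genes. Summed and normalised, the members ran over 2.91% between the highest and the lowest library. The 10 DNA replication genes (PCNA, MCM2 to MCM7, RRM1, RRM2 and TYMS) are also expressed in S phase. Their sum ran over 2.91% and was likewise lowest in replicate 3, but the genes differed. In TPM, PCNA, MCM2, MCM3, MCM5, MCM7 and TYMS were lowest in replicate 3, while MCM6 and RRM1 were highest there. MCM4 and RRM2 were lowest in replicate 2. Of these 10 only MCM2, a subunit of the replicative helicase, passed the same chi-square test (adjusted p = 0.01004). The sum of the 11 histone genes outside the clusters ran over 3.04%, also lowest in replicate 3. The 5 chaperones ran over 2.37% but were lowest in replicate 2, and the 12 processing genes ran over 0.212% and the 5 luminal markers over 0.0897%. The part of cell cycle in the members' shift was not tested.

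**Figure D4:**
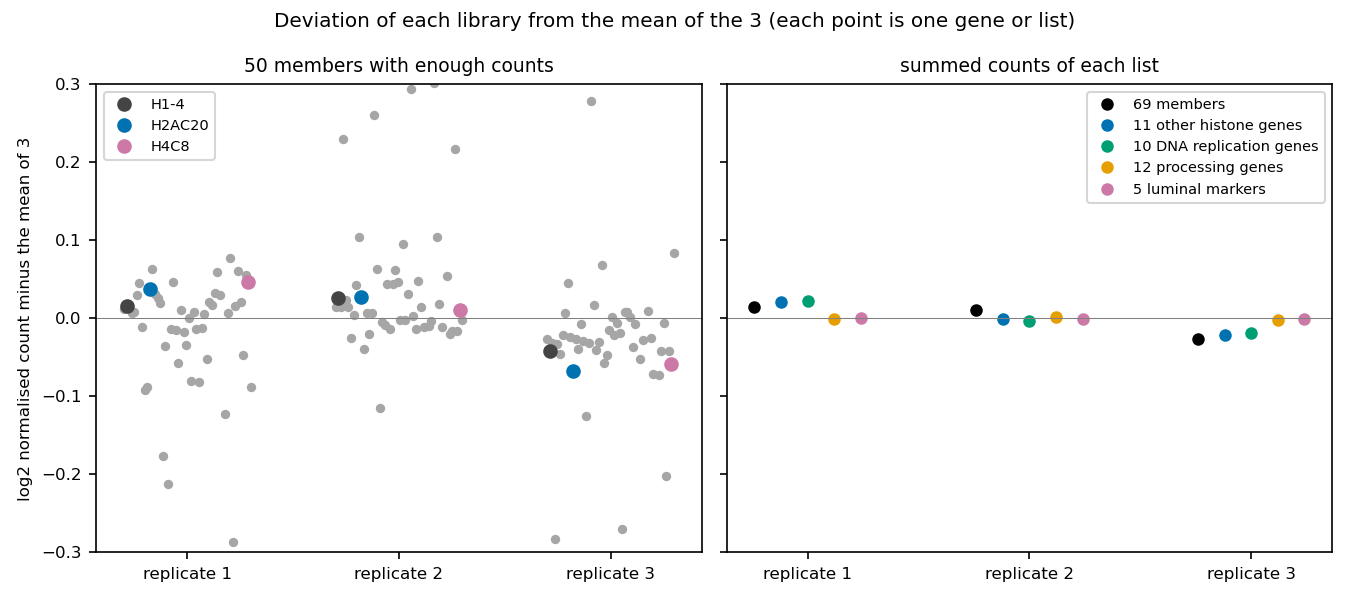
Deviation of each library from the mean of the 3, as log2 of the TMM-normalised count, for the 50 members tested (left, with the 3 that passed the test in colour) and for summed counts of 5 gene lists (right). Points of 3 members lie beyond the axis limit of 0.3. The sums of the members, the other histone genes and the DNA replication genes are lowest in replicate 3, by 0.02 to 0.03, and that of the luminal markers stays at 0.

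The histone genes outside the clusters, whose messages mostly carry poly(A) tails, gave a scale for these levels. The variants H2AZ1 and H2AX stood at 766 ± 2.44 and 562 ± 14.7 TPM, and H2AX, which marks DNA breaks once phosphorylated, is one of the genes with a stem-loop. The linker histone H1-10 stood at 362 ± 5.73 TPM. The genes for replacement histone H3.3 were lower, H3-3B at 185 ± 1.99 TPM and H3-3A at 19.5 ± 1.90 TPM, with 75.2% of the stretches of H3-3A found once. H2AJ, H2AZ2, MACROH2A1, the centromeric CENPA and MACROH2A2 stood between 20.3 and 127 TPM, and H3-5 at 0.172 TPM. The 11 genes together had 2252 TPM, against 37319 TPM for the members. Their models run from 1057 to 17730 bases, and TPM divides by this length. In counts the gap was smaller, at 0.212% of the counts for the 11 genes and 0.784% for the members. None of the 10 tested passed the chi-square test between libraries, and 4 were under an unadjusted p of 0.05. H3-4, a testis gene in the chromosome 1 clusters under another symbol, had 13, 17 and 5 counts.

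The protein factors that make these messages were all detected. SLBP, which binds the stem-loop, stood at 125, 126 and 125 TPM. NPAT, the coactivator of histone genes, stood at 22.1 ± 1.23 TPM and CASP8AP2 at 7.25 ± 0.245 TPM. The U7 particle proteins LSM10 and LSM11 stood at 60.9 ± 1.31 and 6.12 ± 0.373 TPM, and ZNF473, which works with U7, at 13.1 ± 0.628 TPM. Of the cleavage factors, CPSF3, the nuclease, stood at 56.6 TPM, CSTF2 at 56.3, CPSF2 at 44.2 and the scaffold SYMPK at 20.5, and the exonuclease ERI1 stood at 19.6. The U7 RNA gene RNU7-1 is 63 bases long and lies under other exons, so its 0 counts say nothing of its level. Of the chaperones that carry new histones to DNA, ASF1B stood at 103.5 TPM, CHAF1A at 79.8, NASP at 65.0, ASF1A at 31.7 and CHAF1B at 25.1. None of the 11 processing genes and 5 chaperones tested passed the chi-square test, and 3 processing genes and 0 chaperones were under an unadjusted p of 0.05.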

How the data were processed

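RNA-seq of total RNA was analysed in the 3 C4-2B libraries. According to the labels and methods, RNA was depleted of ribosomal RNA, and strand-specific libraries were made and sequenced as pairs. The authors aligned reads with STAR 2.7.0f (submitters' processing notes) and counted genes with featureCounts 1.6.3 on Ensembl release 90 (GRCh38). The deposited values are raw counts. Per the file headers, the command set no strand and did not ask for fragments, so reads of either strand and both mates were counted, and reads at several places or over exons of more than 1 gene were not. Gene length is the deposited union of exons, a further (other) value that the authors' tables give for each gene. Columns of samples outside the series numbered 0. Sequences of near-identical genes and overlapping exons therefore lose counts, which lowers the levels of the genes named for it.

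Members were matched to GENCODE release 44 by identifier (65) or, where the tables carry older identifiers, by coordinates and strand on the same build (H3C2, H3C3, H2AC18 and H2AC19). TPM was scaled to the sum over all genes. Means and SDs are over 3 libraries. The chi-square test had 2 degrees of freedom, library sizes scaled by TMM (edgeR 4.0.16) and a minimum of 30 counts, and was tested on simulated data. Genes named are the 5 with the highest mean TPM in each class, members past the threshold, members with no stretch found once or no counts, and the lists given. Others were chosen after their values were seen. A gene of the list of other histones is not reported here and was left out of its sums. The members and lists were chosen with earlier results of these data known. Alternatives were DESeq2 1.42.0 size factors, no TMM, other minima, lengths, stretches of 50 and 100 bases, and leaving out each library. Python 3.11.15, pandas 2.3.3, numpy 2.4.6, scipy 1.17.1 and R 4.3.3 were used. Limits cover counting error only and are too narrow, because both mates were counted and PCR copies were not marked.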

Additional observations from a re-analysis of the deposited data

How the results depend on the processing

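In place of the 3 members that differed between libraries, the chi-square without division by 2 gave 27 of 50, beside 17.3% of all genes tested. A minimum of 1 count gave 1 member, beside 0.319% of all genes tested. Leaving out 1 library gave 0 to 4 members (0 without replicate 1 or replicate 3), beside 0.186% to 1.11% of all genes tested. The other settings gave 2 to 4 members, beside 0.529% to 1.16%. With CPM in place of TPM, the class shares were 21.72% for H1, 17.81% for H2A, 31.34% for H2B, 14.55% for H3 and 14.58% for H4. With coding length they were 13.54%, 18.73%, 33.88%, 14.57% and 19.28%, and with positions found once 14.35%, 27.67%, 26.16%, 19.86% and 11.96%, in the same order. Without the 11 members under 5% countable, chosen after seeing the data, H2A held 20.39%. The share of chromosomes 1, 6 and 12 was 15.6%, 83.22% and 1.178% with CPM, 16.59%, 81.86% and 1.557% with coding length, and 16.94%, 82.86% and 0.2017% with positions found once. Members took 0.8336% of the counts of protein-coding genes and 0.8238% of counts without mitochondrial and RN7SL genes. Leaving out 1 library moved the mean TPM of 12 of the 67 members with counts by 1.5 times or more, all with a mean of at most 1.53 TPM (H2AC1 fell from 0.865 to 0.345 TPM without replicate 2), and of no member at 100 TPM or more. The number of members at 1 TPM or more ran from 44 to 52. With stretches of 50 and 100 bases, 28 and 49 members were found once throughout, and 7 had none with either. No paired analysis was possible because the replicates of only 1 group were analysed. Depth limits members with few counts, and near-identical copies limit others at any depth.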

Other observations

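The clusters also hold 15 histone pseudogenes, which were outside the members. They summed to 130 ± 6.07 TPM (SD, n = 3). In all 3 libraries, 5 stood at 1 TPM or more. H2BC20P, in the first cluster of chromosome 1, led with 2370, 2769 and 2694 counts (38.3 ± 2.09 TPM). H1-12P stood at 36.6 ± 3.64 TPM, H4C10P at 29.1 ± 3.30 TPM, H2BC19P at 16.6 ± 0.676 TPM and H2BC16P at 7.49 ± 1.79 TPM. Another 5 had no counts. Of the 2 pseudogenes within or beside the run of 7 low members, H2AC9P had 2 counts over the 3 libraries and H2AC10P had none. How far reads of coding genes were placed on pseudogenes was not tested.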
